A study of Mus musculus with 8 samples.

Results

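A set of 10 genes of the AMPA receptor complex was examined in the prefrontal cortex of Mll1 knockout and wild-type mice. They were taken by name: the pore-forming subunit genes Gria1, Gria2, Gria3 and Gria4, the auxiliary TARP genes Cacng2, Cacng3 and Cacng8, the cornichon genes Cnih2 and Cnih3, and the auxiliary gene Shisa6. All 10 had a measured transcript cluster, out of 23983 genes tested. A transcript cluster is the summary of a set of array probes along a gene, and where a gene had several the brightest over the 8 arrays was used. Prefrontal cortex, taken at the cingulate cortex, came from 4 male mice with the genotype Mll1 Ko and 4 male wild-type mice (WT), 1 array per mouse. All were 12 weeks old, kept at rest and housed alone during the final week. The labels give neither the allele nor the Cre driver of the Mll1 Ko mice, although the series title speaks of neuronal Mll1, so the cells that lost the gene are not given in the sources used here.

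AMPA receptors carry most of the fast excitatory current at cortical synapses and are tetramers of GluA subunits encoded by the Gria genes. Auxiliary proteins bind these tetramers, bring them to the cell surface, hold them at the postsynaptic density and slow the closing of the channel. The number and subunit make-up of the receptors at a synapse set its strength and change during plasticity. The product of Mll1, a gene now called Kmt2a, methylates histones at the promoters of active genes.

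Signals were on the log2 scale, so that a difference of 1 is a doubling, and differences are given as Mll1 Ko minus WT. Kmt2a itself was at 10.42, 10.38, 10.29 and 10.3 log2 on the Mll1 Ko arrays, against 9.94, 10.13, 10.12 and 10.06 log2 on the WT arrays. It was thus higher on the arrays labelled Mll1 Ko, by 0.285 ± 0.0565 log2 (SE, limma adjusted p = 0.0142, or 0.0601 without WT replicates 1 and 4). The deleted part of the gene is not stated, so this signal does not check the labels, and every direction below rests on them. WT replicates 1 and 4 varied more than the other arrays, with limma array weights of 0.463 and 0.427 against 0.872 to 1.87 for the rest. Bright genes lay slightly higher and dim genes slightly lower on the Mll1 Ko arrays: the median difference was 0.065 log2 in the brightest of 10 equal classes of genes, -0.075 log2 in class 5 counted from the dimmest, and -0.0325 log2 over all genes. Quantile normalization brought these medians to 0.0081, -0.017 and -0.0091 log2, and it and cyclic loess were set beside the deposited values.

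Of the 10 genes, 3 rose on the Mll1 Ko arrays and none fell (limma, Benjamini-Hochberg over all genes, threshold 0.05). They were all auxiliary subunit genes: Cnih3, Cacng8 and Shisa6. For comparison, 5.15% of all genes tested passed upward and 5.69% downward. Most of the AMPA receptor genes were bright, and in classes 10 and 9 of all genes by brightness, which hold 9 of the 10, 13.9% and 11.2% of genes rose. None of the 4 pore-forming subunit genes passed, and each of their 95% intervals included 0. Cacng2 was the 1 gene of the 10 with an interval wholly below 0, although it did not pass after adjustment. The median difference of the 10 genes was 0.105 log2, against -0.0325 log2 over all genes and 0.0675 and 0.065 log2 in classes 9 and 10. Of the 10 differences 9 were positive, as were those of 9995 of all 23983 genes. After quantile normalization the median was 0.053 log2, against -0.0091 log2 over all genes. Of the 10 differences 8 were then positive, as were those of 11143 of all genes. With these values 2 genes passed upward (2.86% of all genes did) and none downward (1.58% of all genes did). After cyclic loess the same 2, Cnih3 and Shisa6, passed upward, where 3.11% of all genes did, and none passed downward, where 1.82% did. A bulk signal such as this cannot tell fewer cells of a type from less RNA per cell.

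**Figure D1:**
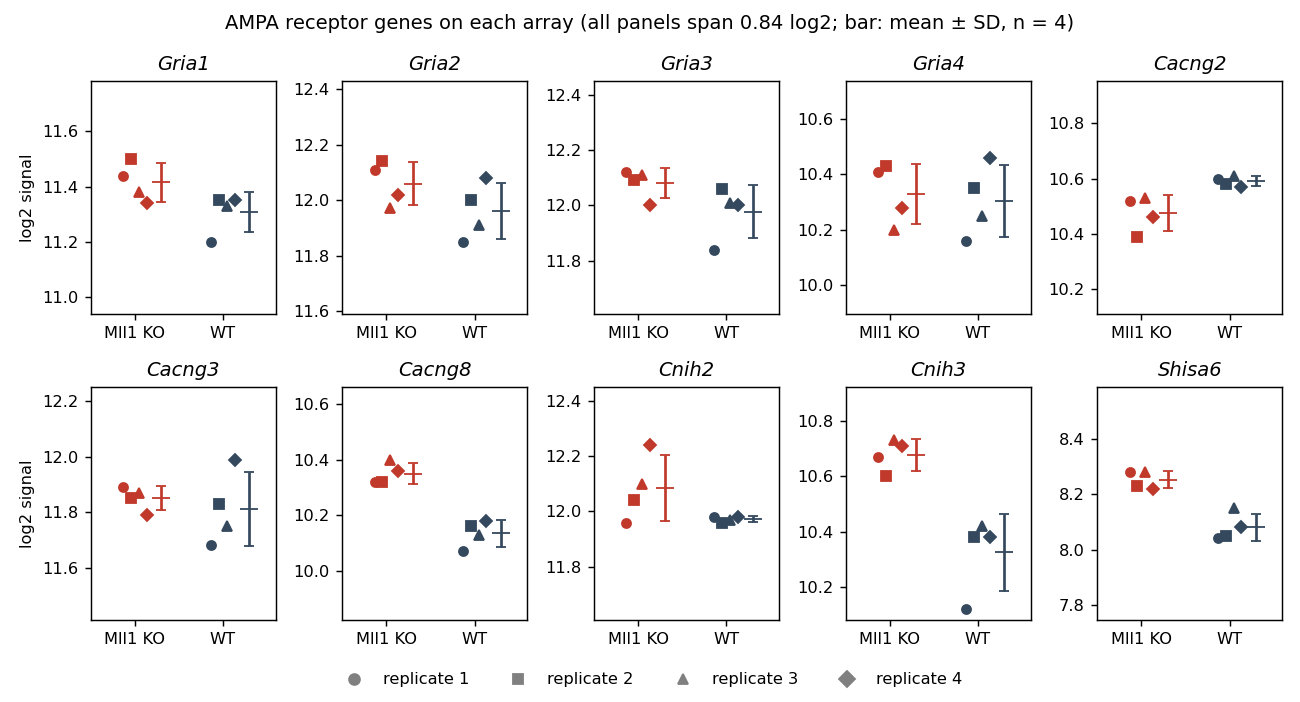
Log2 signal of the 10 AMPA receptor genes on each array, Mll1 Ko in red and WT in dark blue, with a symbol for each replicate number and the mean ± SD of 4 mice beside the points. Every panel spans the same height in log2. The groups stand apart upward for Cacng8, Cnih3 and Shisa6 and downward for Cacng2, and overlap for the other 6 genes.

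Of the pore-forming subunits, Gria1 encodes GluA1, the subunit most tied to activity-driven insertion of receptors at synapses. It was at 11.44, 11.5, 11.38 and 11.34 log2 in Mll1 Ko cortex, against 11.2, 11.35, 11.33 and 11.35 log2 in WT cortex. The groups overlapped, since Mll1 Ko replicate 4 lay within the WT range and WT replicate 1 lay well below the other 7 arrays. The difference was 0.11 ± 0.05 log2 (SE, adjusted p = 0.19), with a 95% interval of -0.01 to 0.23, and it was 0.072 log2 without WT replicate 1.

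Gria2 encodes GluA2, whose edited form keeps calcium out of the channel. It was at 12.11, 12.14, 11.97 and 12.02 log2 in Mll1 Ko cortex, against 11.85, 12, 11.91 and 12.08 log2 in WT cortex. The groups overlapped, with WT replicate 4 above the 2 lower Mll1 Ko arrays, and the difference of 0.10 ± 0.06 log2 did not pass (SE, adjusted p = 0.268, 95% interval -0.04 to 0.24). Without WT replicate 1 it was 0.063 log2. Gria3 encodes GluA3, which pairs mainly with GluA2. Its values were 12.12, 12.09, 12.11 and 12 log2 in Mll1 Ko cortex, against 11.84, 12.06, 12.01 and 12 log2 in WT cortex. Again WT replicate 1 was the lowest array, and the difference of 0.10 ± 0.06 log2 did not pass (SE, adjusted p = 0.225, 95% interval -0.02 to 0.23). Without WT replicate 1 it was 0.057 log2, so that this array alone moved the differences of Gria2 and Gria3 by more than 1.5 times. After quantile normalization the differences of Gria1, Gria2 and Gria3 were 0.066, 0.042 and 0.048 log2, and they did not pass.

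Gria4 encodes GluA4, which in cortex is best known from parvalbumin interneurons. It was at 10.41, 10.43, 10.2 and 10.28 log2 in Mll1 Ko cortex, against 10.16, 10.35, 10.25 and 10.46 log2 in WT cortex. The WT arrays reached both below and above all Mll1 Ko arrays, and the difference of 0.03 ± 0.07 log2 (SE, adjusted p = 0.832) kept no one sign. It was -0.037 log2 after quantile normalization and -0.042 log2 after cyclic loess. The 95% intervals of the 4 subunit genes bound any change in the deposited values: their upper ends correspond to 1.17-fold for Gria1 and Gria3, 1.18-fold for Gria2 and 1.14-fold for Gria4, and their lower ends to 0.991-fold, 0.985-fold, 0.976-fold and 0.91-fold in the same order of Gria1, Gria3, Gria2 and Gria4.

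The differences of Gria1, Gria2 and Gria3 were close in size, so the signal of one relative to another was taken on each array. Gria1 minus Gria2 averaged -0.65 ± 0.04 log2 in Mll1 Ko cortex and -0.65 ± 0.06 log2 in WT cortex (SD, n = 4 each). The shift of that quantity between genotypes was 0.0075 ± 0.0367 log2 (SE), with an exact two-sided permutation p of 0.943 (adjusted p = 1 over the 10 pairs of relatives compared). Within each array any shift common to both genes cancels, so WT replicate 1, low for both, was at -0.65, inside the range of the others. Gria2 minus Gria4 was the one subunit pair whose groups did not overlap. It was at 1.7, 1.71, 1.77 and 1.74 log2 in Mll1 Ko cortex, against 1.69, 1.65, 1.66 and 1.62 log2 in WT cortex. The shift of 0.075 ± 0.0214 log2 (SE) had the smallest exact permutation p that 4 against 4 allows, 0.0286, and an adjusted p of 0.0714 over the 10 pairs, so it did not pass.

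The TARPs are membrane proteins that carry AMPA receptors to the surface and anchor them to scaffolds of the postsynaptic density. Cacng8 encodes TARP gamma-8, a major TARP of hippocampus and cortex. It was at 10.32, 10.32, 10.4 and 10.36 log2 in Mll1 Ko cortex, against 10.07, 10.16, 10.13 and 10.18 log2 in WT cortex. Every Mll1 Ko array lay above every WT array, with a gap of 0.14 log2 between the groups. Cacng8 rose by 0.22 ± 0.05 log2 (SE, adjusted p = 0.0204), or 1.16-fold (95% interval 1.08 to 1.25). The call ended after quantile normalization (0.16 log2, adjusted p = 0.0622), after cyclic loess (0.15 log2, adjusted p = 0.0658), without Mll1 Ko replicate 3 (adjusted p = 0.0669) and without WT replicates 1 and 4 (0.205 log2, adjusted p = 0.055).

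Cacng2 encodes stargazin, TARP gamma-2, and was the only one of the 10 genes with a negative difference in the deposited values. It was at 10.52, 10.39, 10.53 and 10.46 log2 in Mll1 Ko cortex, against 10.6, 10.58, 10.61 and 10.57 log2 in WT cortex. The groups did not overlap, but the difference of -0.12 ± 0.05 log2 did not pass (SE, adjusted p = 0.122). It was -0.17 log2 after quantile normalization (adjusted p = 0.0824) and -0.18 log2 after cyclic loess (adjusted p = 0.0543), in both cases more than 1.5 times as large. A second, dimmer cluster of Cacng2 was at 10.43, 10.28, 10.37 and 10.35 log2 in Mll1 Ko cortex, against 10.32, 10.55, 10.46 and 10.34 log2 in WT cortex. There the groups overlapped, with a difference of -0.06 ± 0.06 log2 (SE, adjusted p = 0.555 over all clusters).

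Cacng3 encodes TARP gamma-3, the TARP closest in sequence to stargazin. It was at 11.89, 11.85, 11.87 and 11.79 log2 in Mll1 Ko cortex, against 11.68, 11.83, 11.75 and 11.99 log2 in WT cortex. The WT arrays spread on both sides of the Mll1 Ko arrays, and the difference of 0.04 ± 0.07 log2 (SE, adjusted p = 0.706, 95% interval -0.10 to 0.18) turned to -0.037 log2 after cyclic loess.

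The signal of Cacng8 relative to Cacng2 was higher on every Mll1 Ko array than on any WT array. Cacng8 minus Cacng2 was at -0.2, -0.07, -0.13 and -0.1 log2 in Mll1 Ko cortex, against -0.53, -0.42, -0.48 and -0.39 log2 in WT cortex. The shift of 0.33 ± 0.042 log2 (SE) was the largest of the 10 pairs and lay between 0.302 and 0.355 log2 over 11 alternatives, both normalizations among them. Its exact permutation p was 0.0286, the smallest possible, and the adjusted p over the 10 pairs was 0.0714. Cacng8 minus Cacng3 shifted by 0.18 ± 0.06 log2 (SE), with no overlap and the same p-values. With 4 mice a group no pair passed after adjustment, so an unequal change of relatives is not shown by this test. Nor could the test show it for a pair alone, since 0.0286 does not pass after adjustment over 10 pairs unless several other pairs reach it too.

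**Figure D2:**
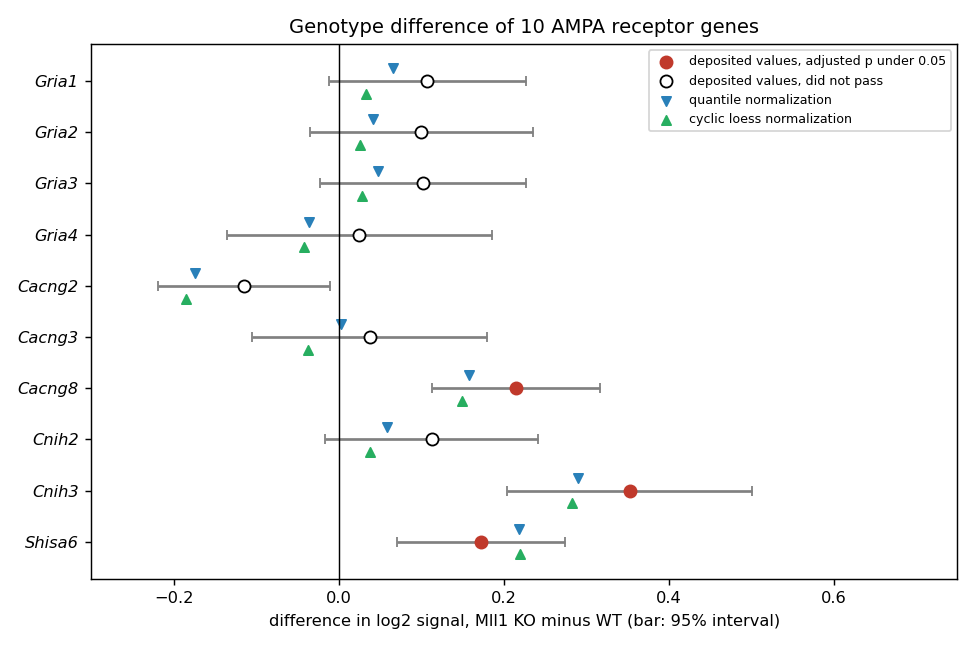
Difference in log2 signal, Mll1 Ko minus WT, for the 10 genes: circles with 95% intervals for the deposited values (filled where adjusted p was under 0.05) and triangles for quantile and cyclic loess normalization. Cnih3 is largest in the deposited values at 0.35 log2, Cacng2 alone is negative there, and both normalizations shift every gene but Shisa6 to the left.

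Cornichons help AMPA receptors leave the endoplasmic reticulum and, at the surface, slow their deactivation and desensitization. Cnih3 showed the largest difference of the 10 genes. It was at 10.67, 10.6, 10.73 and 10.71 log2 in Mll1 Ko cortex, against 10.12, 10.38, 10.42 and 10.38 log2 in WT cortex. The groups were 0.18 log2 apart, and WT replicate 1 was low even among WT arrays. Cnih3 rose by 0.35 ± 0.07 log2 (SE, adjusted p = 0.0124), or 1.28-fold (95% interval 1.15 to 1.41). Without WT replicate 1 the rise was 0.284 log2 (adjusted p = 0.0147), and without WT replicates 1 and 4 it was 0.278 log2 (adjusted p = 0.0327). It passed after quantile normalization (0.29 log2, adjusted p = 0.021) and cyclic loess (0.28 log2, adjusted p = 0.0213), and did not pass an unmoderated test per gene (adjusted p = 0.061).

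Cnih2, its close relative and a prominent partner of AMPA receptors in hippocampal pyramidal cells, was at 11.96, 12.04, 12.1 and 12.24 log2 in Mll1 Ko cortex, against 11.98, 11.96, 11.97 and 11.98 log2 in WT cortex. The WT arrays lay within 0.02 log2 of each other, whereas the Mll1 Ko arrays spread widely, with replicate 1 inside the WT range and replicate 4 far above it. The difference of 0.11 ± 0.06 log2 did not pass (SE, adjusted p = 0.203), and it was 0.061 log2 without Mll1 Ko replicate 4. Cnih3 minus Cnih2 was at -1.29, -1.44, -1.37 and -1.53 log2 in Mll1 Ko cortex, against -1.86, -1.58, -1.55 and -1.6 log2 in WT cortex. The groups did not overlap, though Mll1 Ko replicate 4 came within 0.02 log2 of WT replicate 3. The shift of 0.24 ± 0.09 log2 (SE) had an exact permutation p of 0.0286 and an adjusted p of 0.0714 over the 10 pairs. After quantile normalization the shift was 0.23 log2, with an exact permutation p of 0.0571 and an adjusted p of 0.114. Without WT replicate 1 it was 0.169 log2 in the deposited values.

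**Figure D3:**
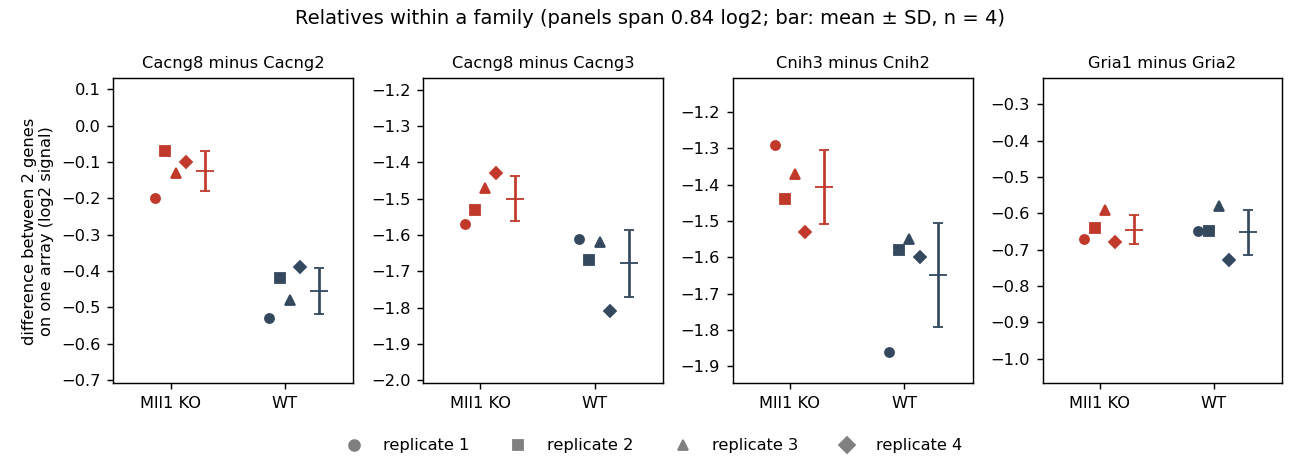
Signal of one gene minus that of a relative on the same array, in log2, with Mll1 Ko in red and WT in dark blue and the mean ± SD of 4 mice beside the points. Cacng8 minus Cacng2 is at -0.2 to -0.07 in Mll1 Ko cortex and -0.53 to -0.39 in WT cortex, while the groups overlap for Gria1 minus Gria2.

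Shisa6, also called CKAMP52, is a membrane protein that keeps AMPA receptors at the postsynaptic density and limits their desensitization. It was at 8.28, 8.23, 8.28 and 8.22 log2 in Mll1 Ko cortex, against 8.04, 8.05, 8.15 and 8.08 log2 in WT cortex. All Mll1 Ko arrays lay above all WT arrays, by at least 0.07 log2. Shisa6 rose by 0.17 ± 0.05 log2 (SE, adjusted p = 0.0385), or 1.13-fold (95% interval 1.05 to 1.21). Its signal lay in the fifth brightness class, where 2.04% of genes rose and the median difference was -0.075 log2. Its difference was larger after quantile normalization (0.22 log2, adjusted p = 0.0298) and after cyclic loess (0.22 log2, adjusted p = 0.0244). The call was lost without any 1 of 6 arrays, all but WT replicates 3 and 4 (adjusted p 0.0557 to 0.104), without WT replicates 1 and 4 (0.15 log2, adjusted p = 0.12) and with adjustment over all transcript clusters (adjusted p = 0.0652).

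**Figure D4:**
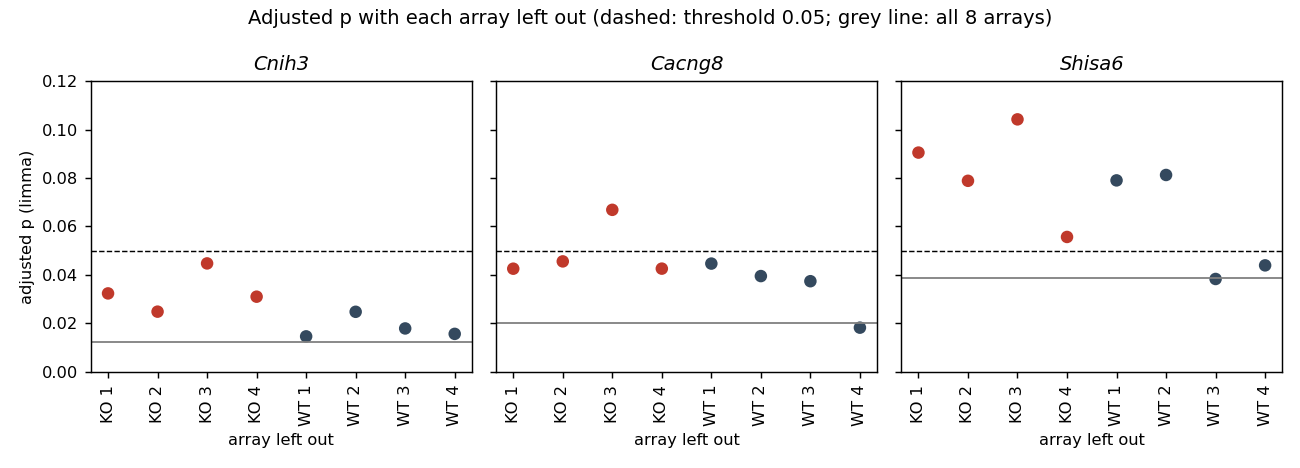
Adjusted p (limma, over all genes) of the 3 genes that rose, with each array left out in turn, Mll1 Ko arrays in red and WT arrays in dark blue. The dashed line is the threshold of 0.05 and the grey line the value with all 8 arrays: Cnih3 stays under the threshold in 8 of 8, Cacng8 in 7 of 8 and Shisa6 in 2 of 8.

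Groups that did not overlap were found for 4 of the 10 genes, upward for Cnih3, Cacng8 and Shisa6 and downward for Cacng2. Of all genes tested, 9.47% had every Mll1 Ko value above every WT value and 10.1% had every one below. The authors' deposited table, which gives a fold of WT over Mll1 Ko with a minus sign where Mll1 Ko is higher, listed Cacng8 at -1.15 (FDR p = 0.0276), Shisa6 at -1.14 (FDR p = 0.0409) and Cnih3 at -1.23 (FDR p = 0.0607). Cnih3 thus missed in the authors' deposited table the threshold that it passed in limma. The authors' deposited table also gives a WT level of 10.39 log2 for Cnih3, where the mean of the 4 WT arrays was 10.33 log2. Per the file headers the authors' level is a bi-weight average and not a plain mean. The authors' deposited table gave the other 7 genes an FDR p between 0.104 and 0.862.

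Mll1 reaches promoters partly through a domain that binds unmethylated CG dinucleotides, so the promoter windows of Cnih3 and Cacng8, which rose, are shown with that of Cnih2, which did not pass. RefSeq windows of assembly GRCm38.p6, from 250 bases before to 50 after a gene's start, matched 7 of the 10 genes: Gria2, Gria4, Cacng2, Cacng3, Cacng8, Cnih2 and Cnih3. CG dinucleotides are in capitals. The Cnih3 window is chr1:181352378-181352677, plus strand, that of Cnih2 chr19:5098472-5098771, minus strand, and that of Cacng8 chr7:3393792-3394091, plus strand.
Cnih3: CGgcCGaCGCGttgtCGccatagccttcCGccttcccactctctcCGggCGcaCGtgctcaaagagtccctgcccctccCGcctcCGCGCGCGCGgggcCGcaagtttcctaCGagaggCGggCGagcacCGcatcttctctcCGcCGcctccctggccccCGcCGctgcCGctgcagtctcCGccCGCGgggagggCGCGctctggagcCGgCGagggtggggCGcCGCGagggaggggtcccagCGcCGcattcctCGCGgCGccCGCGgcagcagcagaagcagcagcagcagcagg
Cnih2: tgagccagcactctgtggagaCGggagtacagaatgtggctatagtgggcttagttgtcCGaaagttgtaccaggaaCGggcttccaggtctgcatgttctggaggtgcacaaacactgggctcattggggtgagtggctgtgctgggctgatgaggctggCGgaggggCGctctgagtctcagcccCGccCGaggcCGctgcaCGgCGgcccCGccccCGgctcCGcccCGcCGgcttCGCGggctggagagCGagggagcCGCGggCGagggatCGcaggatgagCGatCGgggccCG
Cacng8: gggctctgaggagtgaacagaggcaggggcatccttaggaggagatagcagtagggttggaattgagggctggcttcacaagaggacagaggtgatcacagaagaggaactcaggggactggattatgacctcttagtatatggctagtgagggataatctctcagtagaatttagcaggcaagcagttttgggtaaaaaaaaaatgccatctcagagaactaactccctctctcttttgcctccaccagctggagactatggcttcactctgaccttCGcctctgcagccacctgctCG

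The Cnih3 window held 42 CG dinucleotides, as many as or more than which only 3.03% of the 32851 RefSeq promoter windows had, and the Cacng8 window held 2, which 85.9% of windows reached. The windows of these 2 genes thus lay far apart in CG content, which compares the printed windows and not the promoters of genes that rose. The windows were placed by the RefSeq starts alone. Whether the Cacng8 window holds the promoter used in cortex was not tested, so its CG content may not be that of the promoter. Cnih2 had 25, Gria2 26, Cacng2 20, Gria4 17 and Cacng3 9, against a median of 7 over all windows. The motif GGGCGG, read on both strands, was found once in the Cnih3 window, 3 times in that of Cnih2 and in none of the other 5, and 35.7% of all windows held it. The motif TGACGTCA, which reads the same on both strands, was in none of the 7 and in 1.79% of all windows. These motifs include CG themselves and are descriptions of the letters in these windows.

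The genes whose course over the 8 arrays was most like that of Cnih3 were Bok, Ncs1 and Mamld1, measured as the root mean square distance between profiles centred on each gene's mean. Bok, at a distance of 0.0384 log2, was at 10.13, 10.06, 10.24 and 10.16 log2 in Mll1 Ko cortex, against 9.6, 9.85, 9.8 and 9.89 log2 in WT cortex. Ncs1 lay at a distance of 0.0387 log2 and Mamld1 at 0.0409 log2. In all 3, as in Cnih3, every Mll1 Ko array was above every WT array and WT replicate 1 was the lowest of the 8. The 3 were picked for their likeness to Cnih3 on these same arrays, so these shared features follow from the choice.

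Other genes that build, move or cluster AMPA receptors were read from the same fit as a list of 43, of which 40 were tested. Of these 40 genes, 3 rose and 2 fell, where 5.15% and 5.69% of all genes did. Their median difference was 0.034 log2, against -0.0325 log2 over all genes, and after quantile normalization it was -0.016 log2 against -0.0091 log2. Most of the 40 lay in brightness classes 9 and 10, where the median difference in the deposited values was 0.0675 and 0.065 log2. In these 2 classes 11.2% and 13.9% of genes rose, and 2.25% and 1.63% fell. The balance of calls turned with the scaling. After quantile normalization 1 of the 40 passed upward, where 2.86% of all genes did, and 4 passed downward, where 1.58% did. After cyclic loess 1 passed upward (3.11% of all genes) and 5 downward (1.82% of all genes).

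Frrs1l encodes a protein of the endoplasmic reticulum that takes part in AMPA receptor assembly. It was at 11.84, 11.79, 11.72 and 11.69 log2 in Mll1 Ko cortex, against 12.03, 12.06, 12.06 and 12.03 log2 in WT cortex. The groups were 0.19 log2 apart, and Frrs1l fell by 0.29 ± 0.05 log2 (SE, adjusted p = 0.0068). Syndig1 encodes a membrane protein that binds AMPA receptors and takes part in the growth of excitatory synapses. It was at 10.29, 10.32, 10.42 and 10.32 log2 in Mll1 Ko cortex, against 10.51, 10.65, 10.67 and 10.66 log2 in WT cortex. The groups did not overlap, even with WT replicate 1 lower than the other WT arrays, and Syndig1 fell by 0.29 ± 0.05 log2 (SE, adjusted p = 0.0112). Both falls passed under all 19 alternatives tried, and after quantile normalization they were -0.33 log2 for Frrs1l and -0.35 log2 for Syndig1.

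Lrrtm1, a postsynaptic adhesion molecule that binds neurexins and helps hold AMPA receptors at synapses, was at 9.6, 9.62, 9.7 and 9.6 log2 in Mll1 Ko cortex, against 9.22, 9.17, 9.31 and 9.1 log2 in WT cortex. Its groups were 0.29 log2 apart, the widest gap among the 10 genes and the 40 partner genes. It rose by 0.43 ± 0.05 log2 (SE, adjusted p = 0.002) and passed under all 19 alternatives. Cpt1c, an endoplasmic reticulum protein that binds GluA1, rose by 0.21 ± 0.06 log2 (SE, adjusted p = 0.048), and Myo5b, a myosin motor of recycling endosomes, by 0.20 ± 0.05 log2 (SE, adjusted p = 0.0345). Neither Cpt1c (adjusted p = 0.185) nor Myo5b (adjusted p = 0.0579) passed with quantile-normalized signals, and both also lost their calls without WT replicates 1 and 4 (adjusted p = 0.218 for Cpt1c and 0.117 for Myo5b). In all, Cpt1c lost its call under 14 of 19 alternatives, 7 of them with a single array left out, and Myo5b under 12 of 19, 6 of them with a single array left out.

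**Figure D5:**
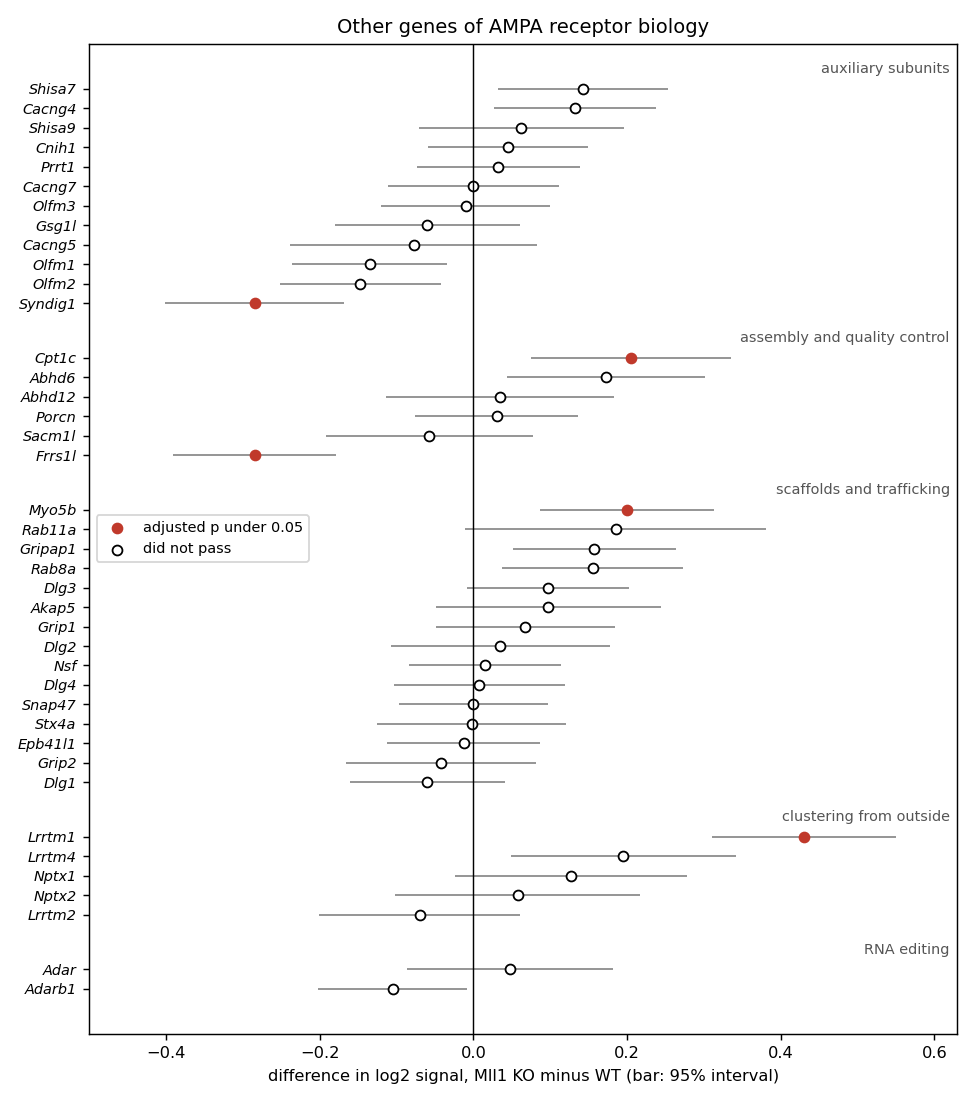
Difference in log2 signal, Mll1 Ko minus WT, with 95% intervals for the 40 partner genes, grouped by role and filled where adjusted p was under 0.05. Lrrtm1 lies farthest right at 0.43 log2, and Frrs1l and Syndig1 farthest left at -0.29 log2.

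By role, 1 of 12 further auxiliary subunit genes passed (Syndig1, lower), as did 2 of 6 genes of assembly (Frrs1l lower, Cpt1c higher). Of scaffolding and trafficking 1 of 15 passed (Myo5b, higher), of clustering from outside the cell 1 of 5 (Lrrtm1, higher) and of RNA editing none of 2. For comparison, 2600 of all 23983 genes tested passed in either direction. The TARP gene Cacng7 (0.00 ± 0.05 log2), Cacng4 (0.13 ± 0.05 log2) and Cacng5 (-0.08 ± 0.07 log2) did not pass, nor did the Shisa relatives Shisa7 (0.14 ± 0.05 log2) and Shisa9 (0.06 ± 0.06 log2, SE throughout). Those closest to the threshold were Gripap1, a regulator of receptor recycling (0.16 ± 0.05 log2, adjusted p = 0.0561), and the secreted noelins Olfm2 (-0.15 ± 0.05 log2, adjusted p = 0.0664) and Olfm1 (-0.14 ± 0.05 log2, adjusted p = 0.0757). Olfm2 passed after quantile normalization, at -0.21 log2 (adjusted p = 0.0255). Adarb1, the enzyme that edits Gria2 RNA, was at -0.11 ± 0.04 log2 in the deposited values (SE) and was called lower after both quantile normalization and cyclic loess. The scaffold gene Dlg4, which encodes PSD-95, was at 0.01 ± 0.05 log2 and Nsf, which drives receptor insertion, at 0.02 ± 0.05 log2.

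Markers of the cell types that cortex holds were read beside these genes, where 5.15% of all genes rose and 5.69% fell. Genes shared by all neurons had a mean log2 signal of 12.67 to 12.75 over the Mll1 Ko arrays and 12.70 to 12.78 over the WT arrays, and none of the 4 passed. Of 5 markers of excitatory cortical neurons 2 fell, Tbr1 among them at -0.46 ± 0.06 log2 (SE, adjusted p = 0.00236). The other 3 did not pass, Slc17a7 being at -0.03 log2, Camk2a at -0.02 log2 and Neurod6 at -0.26 log2. With the 2 that fell included, the mean signal of the 5 was 10.91 to 11.05 log2 in Mll1 Ko cortex and 11.20 to 11.32 log2 in WT cortex. Of 6 interneuron markers Gad1 fell (-0.20 ± 0.05 log2, SE, adjusted p = 0.0349) and the other 5 did not pass, Sst being at 0.21 log2, Vip at 0.04, Gad2 at 0.00, Slc32a1 at -0.04 and Pvalb at -0.18 log2. The list had a mean signal of 10.15 to 10.25 log2 in Mll1 Ko cortex and 10.16 to 10.30 log2 in WT cortex. Of 6 striatal markers Adora2a fell, by 0.41 ± 0.07 log2 (SE, adjusted p = 0.00662), and the other 5 did not pass, 2 of them with positive differences (Drd1 0.10 and Ppp1r1b 0.00 log2) and 3 with negative ones. The list had a mean signal of 9.96 to 10.16 log2 in Mll1 Ko cortex and 10.07 to 10.24 log2 in WT cortex. Of 4 markers of oligodendrocyte precursors, which also carry AMPA receptors, Pdgfra rose by 0.22 ± 0.04 log2 (SE, adjusted p = 0.0143) and the other 3 did not pass. The list had a mean signal of 9.29 to 9.33 log2 in Mll1 Ko cortex and 9.16 to 9.25 log2 in WT cortex. None of 5 astrocyte, 5 oligodendrocyte, 5 microglia and 4 endothelial markers passed. After quantile normalization none of the 4 precursor markers passed, so the call of Pdgfra ended, while 2 excitatory, 1 interneuron, 2 striatal and 1 of the markers shared by all neurons were called lower. Of all genes 2.86% were then called higher and 1.58% lower. The part of these shifts in the differences of the AMPA receptor genes was not tested.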

How the data were processed

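Total RNA of each mouse was labelled with biotin (Affymetrix WT PLUS reagents, per the labels' protocols) and read on 1 array. The deposited log2 values of 35556 transcript clusters come from the authors. The submitters' processing notes name Affymetrix Expression Console, the RMA summary and Transcriptome Analysis Console 3.0 without their order. Build, annotation release and array model are not given in the sources used here. The authors' deposited table adds, per the file headers, a signed fold score (WT over Mll1 Ko), a p-value and an FDR p-value for 28944 clusters; it named 25400 clusters by 1 gene, 1436 by several and 2108 by none. The brightest cluster per symbol gave 23983 genes.

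Differences were fitted with limma 3.58.1 (lmFit, eBayes; R 4.3.3), genotype being the single factor, with Benjamini-Hochberg adjustment over all genes, and pairs of relatives with exact two-sided permutation tests (scipy 1.17.1). The script was tested on simulated data. At most 1339 clusters were equal between any 2 arrays, so no array was a copy of another. That each array is 1 mouse was taken from the series' design text, which gives 4 mice per genotype. Arrays give no counts, and their number limits the precision. Alternatives were quantile and cyclic loess normalization (3 iterations), median centring, dim genes left out (17992 kept), array weights, trend and robust eBayes, no moderation, the mean of all clusters, adjustment over all clusters, a replicate block, and arrays left out.

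The members, lists, tests and alternatives were chosen with earlier results of these data known. Named were all members, Kmt2a, the passing partner genes and the 3 closest to passing, and the 3 genes nearest in profile to the member with the largest called difference (predicted, Rik, microRNA and snoRNA genes left out); other partner genes named for their role, and markers that moved, were chosen after their values were seen. Of 43 partner genes listed 3 had no tested cluster of their own (Shisa8, Nptxr and Pick1). A marker that fell is counted but not reported here by name.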

Additional observations from a re-analysis of the deposited data

Results flagged for a closer look

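Among 19 gene results, each examined in the 4 Mll1 Ko and the 4 WT arrays (38 groups), 3 had an array far from the other 3 of its group by Dixon's criterion, and chance flags about 1 group in 20. All 3 concerned WT replicate 1, which was the lowest of the 4 WT arrays in each. Cnih3 stood at 10.12 log2 there, against 10.38 to 10.42 log2 on the other WT arrays. Gria1 stood at 11.2 log2, against 11.33 to 11.35 log2. Syndig1 stood at 10.51 log2, against 10.65 to 10.67 log2. Without that array Cnih3 still passed (0.284 log2, limma adjusted p = 0.0147), and the fall of Syndig1 was larger, at -0.3225 log2.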

How the results depend on the processing

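Of the 10 AMPA receptor genes, the number called higher was 3 with all arrays and 2 or 3 under 17 of 19 alternatives. It was 1, Cnih3, without Mll1 Ko replicate 3, where 398 of all 23983 genes were called higher and 313 lower. It was also 1, Cnih3, without WT replicates 1 and 4, where 424 of all genes were called higher and 395 lower. With all arrays 1236 and 1364 were. The number of the 10 genes called higher thus ranged from 1 to 3 with single arrays left out. None was called lower by limma under any of the 19, although the unadjusted 95% interval of Cacng2 lay below 0. Partner genes called higher numbered 3, and 1, Lrrtm1, after quantile normalization, cyclic loess, the unmoderated test, adjustment over all clusters, the replicate block and exclusion of WT replicates 1 and 4. They numbered 7 with each array centred on its median, where 1843 of all 23983 genes were called higher, and 1 to 4 with single arrays left out. Partner genes called lower numbered 2, and 4 after quantile normalization (1.58% of all genes) and 5 after cyclic loess (1.82% of all genes). They numbered 4 with array weights, where 2469 of all 23983 genes were called lower, and 4 with trend and robust eBayes, where 1370 were. The difference changed sign for Gria4 (-0.037 after quantile normalization, -0.042 after cyclic loess, and -0.0233 to 0.0767 with single arrays left out) and Cacng3 (-0.037 after cyclic loess, -0.0067 to 0.0967 with single arrays left out), neither of which passed in any fit. Among pairs of relatives, Gria1 minus Gria2 (-0.0183 to 0.0317), Gria1 minus Gria3 (-0.02 to 0.0267) and Gria2 minus Gria3 (-0.03 to 0.0375) changed sign. No pair passed under any of 11 alternatives. With 3 against 4 arrays the exact test could not pass, and with 4 against 4 a pair alone could not pass after adjustment. The cause of the changes of sign and of calls was not tested. Same-numbered arrays shared only a number (correlations of their deviations -0.00842 to 0.0236), and with the replicate block Shisa6 (adjusted p = 0.0692), Cpt1c (0.0807) and Myo5b (0.0579) lost their calls, with 799 genes called higher in all and 759 lower, against 1236 and 1364 without it. Quantile normalization gave 686 and 379, and single arrays left out gave 398 to 1506 and 313 to 1755.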
